A study of Rattus norvegicus with 6 samples.

Results

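The genes of the respiratory chain and ATP synthase are encoded partly in the nucleus and partly in the mitochondrial genome, and both sets were compared between C6-AQP1 and C6 control cells. Members were taken by symbol: every gene whose symbol starts with Nduf, Sdha to Sdhd, Uqcr, Cox4 to Cox8, Atp5 or Mt-, together with Cyc1 and Cycs. This selected 107 of the 12121 genes in the count tables, of which 94 are nuclear and 13 belong to the mitochondrial genome. The nuclear genes comprise 79 genes for subunits of complexes I to V or cytochrome c, 14 genes for assembly or accessory factors, and 1 pseudogene. Among the 13 mitochondrial genes are those for 7 subunits of complex I, 1 of complex III, 3 of complex IV and 2 of complex V.

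Electrons from NADH enter the chain at complex I and those from succinate at complex II. They pass through coenzyme Q to complex III and through cytochrome c to complex IV, where oxygen is reduced to water. The proton gradient built by complexes I, III and IV drives ATP synthase, also called complex V. Complexes I, III, IV and V combine subunits of both genomes, whereas complex II and cytochrome c are entirely nuclear. The nuclear genes are transcribed one by one by RNA polymerase II, while the mitochondrial genes are read as long transcripts from each strand and then cut apart.

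The study overexpressed AQP1, a membrane protein that lets water pass, in the established rat glioma cell line C6. There were 3 RNA-seq libraries of the overexpressing cells (C6-AQP1) and 3 of C6 control without overexpression. The methods describe AQP1 on a pCDH vector with a CMV promoter, and whether the sequenced control cells carried an empty vector is not stated. Whether libraries of the same group were separate cultures is not stated either, so p-values reflect only the variation among these libraries, and this may be technical.

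Library totals lay between 19054251 and 52725877 counts, with the lowest total of each group in its replicate 1. Aqp1 (ENSRNOG00000011648) had 1052, 1064 and 1057 CPM (counts scaled by TMM to a common library size) in C6-AQP1 and 347, 352 and 349 in C6 control, so the overexpressed gene was higher in every library labelled C6-AQP1. Of 11 markers of glial and glioma cells, 9 were listed. All 9 were higher in C6-AQP1 by edgeR's test, where 40.8% of all genes were higher and 40.7% lower. Their log2 fold changes ran from 0.14 for Cnp to 3.57 for Gfap. Of 6 neuronal markers, 2 were listed, with Gad1 higher and Tubb3 not passing the test. No marker of microglia and other leukocytes or of endothelial cells was listed, out of 6 in each list. In bulk RNA, fewer cells that express a gene and less of its RNA per cell cannot be told apart.

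Most nuclear subunit genes were lower in C6-AQP1, while the mitochondrial genes were split. Of the 79 nuclear subunit genes, 69 fell in C6-AQP1, none rose and 10 did not pass the test, which was edgeR's quasi-likelihood test with a Benjamini-Hochberg adjusted p under 0.05 over all genes. The share that fell was 87.3%, where 40.7% of all genes tested fell, 40.8% rose and 81.5% passed in either direction. A rise was called in 7 of the 13 mitochondrial genes and a fall in 2, and 4 did not pass. The share of mitochondrial genes that rose was 53.8%, not far above the 40.8% of all genes. The median log2 fold change, taken as C6-AQP1 minus C6 control, was -0.61 over the nuclear subunit genes, 0.15 over the mitochondrial genes and 0.00 over all genes.

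Most changes were moderate in size. Among the nuclear subunit genes, 5 were DEGs with a fall of more than 2-fold, namely Ndufb5, Uqcr10, Uqcrq, Cox5b and Atp5g1. These are 6.33% of the 79 genes, beside 4.35% of all genes. No mitochondrial gene passed 2-fold, beside 9.74% of all genes that did so upward and 14.1% that did so in either direction. When the change itself was tested against 1.2-fold with edgeR's glmTreat, 63 nuclear subunit genes fell and none rose, where 27.1% of all genes fell and 28.9% rose. By the same test 4 mitochondrial genes rose, namely Mt-nd1, Mt-nd5, Mt-co1 and Mt-co2, and none fell. Their share of 30.8% was close to the 28.9% of all genes. In 69 of the nuclear subunit genes every C6-AQP1 library lay below every C6 control library, a separation found in 41.3% of all genes. In none did every C6-AQP1 library lie above, a pattern that was also found in 41.3% of all genes, so that 82.5% of all genes did not overlap in either direction.

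**Figure D1:**
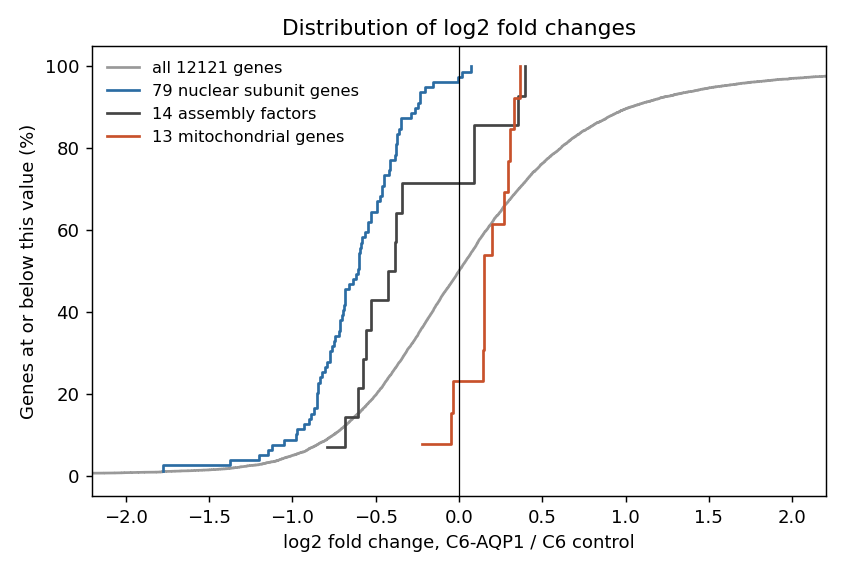
Cumulative share of genes (vertical axis, percent) at or below each log2 fold change of C6-AQP1 minus C6 control (horizontal axis). Curves show all 12121 genes, the 79 nuclear subunit genes, the 14 assembly factors and the 13 mitochondrial genes. The nuclear subunit curve lies to the left of the curve for all genes, with its median at -0.61, and the mitochondrial curve has its median at 0.15.

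The balance between the genomes was also read within each library, where no scaling between libraries enters. The counts of the 13 mitochondrial genes divided by those of the 79 nuclear subunit genes gave ratios of 4.91, 4.88 and 4.94 in C6-AQP1. In C6 control the ratios were 2.90, 2.98 and 2.91. The groups did not overlap, and the C6-AQP1 mean of 4.91 ± 0.0302 (SD, n = 3) was 1.68 times the control mean of 2.93 ± 0.0443 (SD, n = 3). Both parts of the ratio differed between the groups without overlap. Nuclear subunit genes took 0.765% ± 0.0252 (SD, n = 3) of all counts in C6-AQP1 and 1.06% ± 0.0126 (SD, n = 3) in C6 control. The mitochondrial share was 3.76% ± 0.123 (SD, n = 3) and 3.11% ± 0.0535 (SD, n = 3). Mt-co1, which encodes the catalytic subunit of complex IV, took the most counts of any member, and without it the mean ratios were 2.97 and 1.86. Within single complexes the mean ratio in C6-AQP1 was 1.48 times that in C6 control for complex I, 1.58 times for complex III, 1.67 times for complex V and 1.92 times for complex IV. No library of either group overlapped with the other group in any of these ratios.

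**Figure D2:**
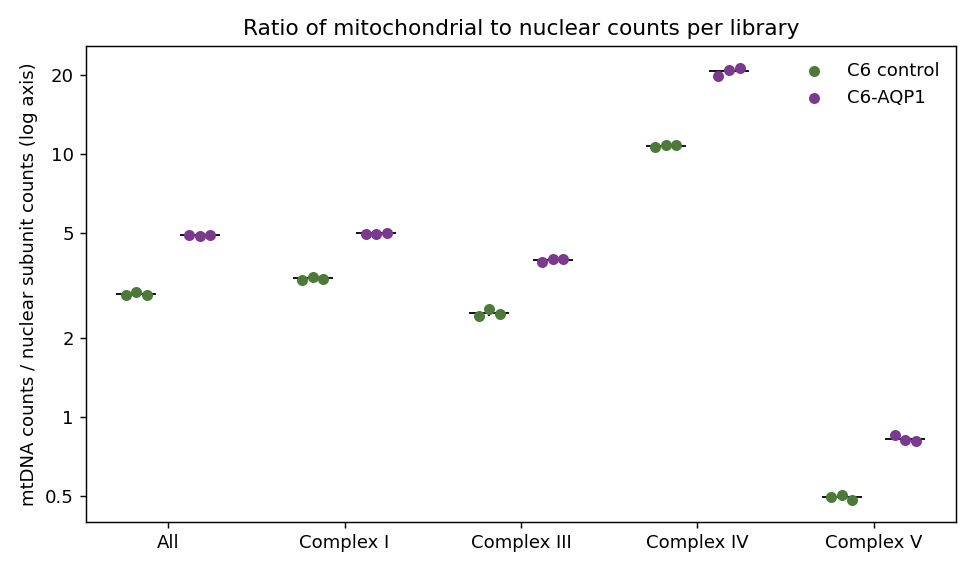
Ratio of mitochondrial to nuclear subunit counts within each library (vertical axis, log scale, no unit), for the whole chain and for complexes I, III, IV and V, with a point for each library, a line at each group mean and bars of 1 SD. The C6-AQP1 libraries lie above all C6 control libraries in each comparison, at 4.88 to 4.94 against 2.90 to 2.98 for the whole chain.

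The mitochondrial genes did not move as a block. Mt-co1 had 14971, 14346 and 14459 CPM in C6-AQP1 and 11634, 11738 and 11442 CPM in C6 control. The log2 fold change was 0.33 (SE 0.02), with an adjusted p of 1.2e-13 by edgeR. Mt-co2, which encodes the subunit that receives electrons from cytochrome c, had 3913, 3672 and 3611 CPM against 2927, 2932 and 2808 CPM. This was the highest log2 fold change of the 13 genes, at 0.37 (SE 0.03). Mt-cox3, for the remaining core subunit of complex IV, had 4229, 3901 and 3960 CPM against 3645, 3687 and 3564 CPM, with a log2 fold change of 0.15 (SE 0.03). All 3 core genes of complex IV therefore had every C6-AQP1 library above every control library, a pattern found in 41.3% of all genes.

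The mitochondrial genes of complex I, which form its membrane arm, went both ways. Mt-nd1 rose by 0.30 (SE 0.02) and Mt-nd5 by 0.31 (SE 0.02) on the log2 scale. Mt-nd4 had 2325, 2249 and 2290 CPM in C6-AQP1 and 2667, 2719 and 2628 CPM in C6 control, so its C6-AQP1 libraries were all below the controls. The log2 fold change was -0.22 (SE 0.02, edgeR adjusted p = 1.7e-10). Mt-nd2 had 2217, 2225 and 2201 CPM against 2280, 2326 and 2247 CPM, with a log2 fold change of -0.05 (SE 0.02, edgeR adjusted p = 0.020). The call for Mt-nd2 was lost without C6-AQP1 replicate 3 (-0.04, edgeR adjusted p = 0.085), without C6 control replicate 1 (-0.04, edgeR adjusted p = 0.068) and without C6 control replicate 2 (-0.02, edgeR adjusted p = 0.28), and its sign turned when library totals replaced TMM (0.0096). Mt-cyb, the cytochrome b of complex III, rose by 0.15 (SE 0.02), and Mt-atp6, part of the proton channel of ATP synthase, rose by 0.20 (SE 0.04).

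In 4 mitochondrial genes, C6-AQP1 replicate 1 stood apart from the other libraries. Mt-nd4l had 149.0 CPM there but 88.3 and 83.6 CPM in the other C6-AQP1 libraries, beside 109.7, 109.1 and 99.4 CPM in C6 control. For this gene 5 libraries held a fractional estimate. Mt-nd3 had 294.9, 206.6 and 192.9 CPM in C6-AQP1 and 217.3, 214.7 and 187.9 CPM in C6 control. Mt-atp8 had 39.7, 26.6 and 23.8 CPM in C6-AQP1 and 24.1, 25.6 and 22.4 CPM in C6 control. Mt-nd6 is the sole protein gene on the light strand in mammals, and it had 158.2, 125.4 and 116.9 CPM in C6-AQP1 against 121.0, 124.0 and 111.1 CPM. None of these 4 genes passed the test with all libraries. Without C6-AQP1 replicate 1, Mt-nd4l was lower in C6-AQP1, with a log2 fold change of -0.30 (SE 0.04, edgeR adjusted p = 2.0e-05). The log2 fold changes of the others without that library were -0.04 (SE 0.09) for Mt-nd3, 0.03 (SE 0.06) for Mt-nd6 and 0.07 (SE 0.06) for Mt-atp8, and none passed.

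**Figure D3:**
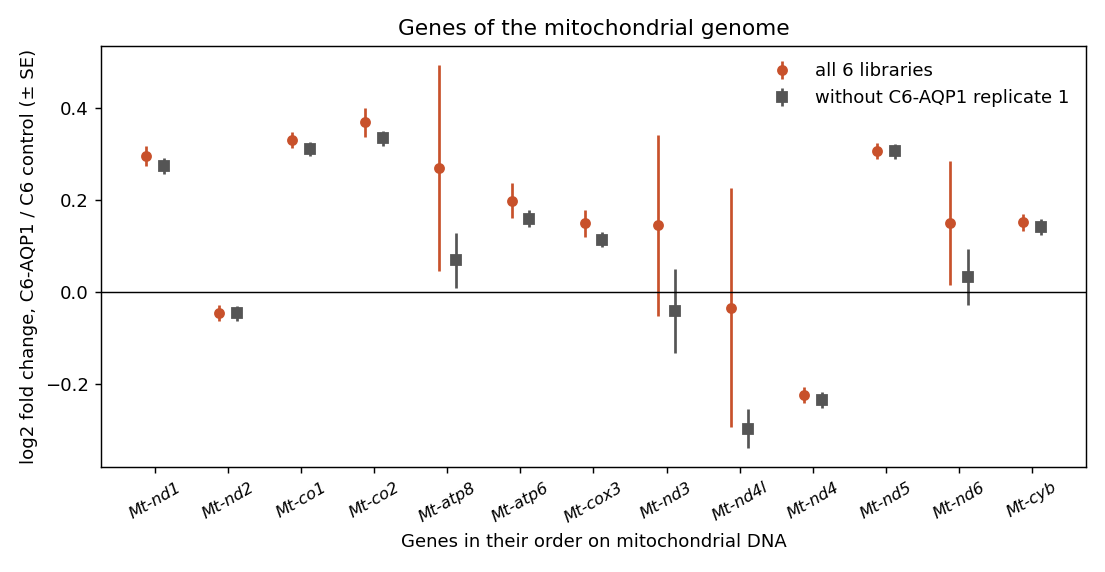
Log2 fold change of C6-AQP1 minus C6 control (axis in log2 units) for the 13 mitochondrial genes in their order on the genome, with bars of 1 SE, from all libraries and without C6-AQP1 replicate 1. Mt-co2 lies highest at 0.37 with all libraries, and the estimate for Mt-nd4l moves from -0.03 to -0.30 when that library is left out.

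The same library was often the highest of its group in nuclear genes. C6-AQP1 replicate 1 had the highest CPM of the 3 C6-AQP1 libraries in 61 of the 79 nuclear subunit genes and in 11 of the 13 mitochondrial genes, where it was highest in 34.7% of all genes. In C6 control, replicate 1 was highest in 41 of the 79 nuclear subunit genes, beside 36.5% of all genes. Control replicate 2 was highest in 11 of the 13 mitochondrial genes, beside 29.6% of all genes. Without C6-AQP1 replicate 1, 71 nuclear subunit genes fell. The same number fell without both libraries numbered 1.

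Complex I contributed 35 of the nuclear subunit genes, of which 30 fell and 5 did not pass, with a median log2 fold change of -0.60. Of all genes, 40.7% fell and 40.8% rose. Genes of the 7 nuclear core subunits, which form its electron-transferring arm, all fell with a median of -0.38. The lowest of these was Ndufs3 at -0.60 (SE 0.04) and the highest Ndufv1, for the NADH-binding subunit, at -0.23 (SE 0.03). The 28 genes for accessory subunits had a median of -0.66, and 23 of them fell, with Ndufb10 at -0.15 (SE 0.03) the smallest fall. The difference between core and accessory genes was not tested.

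Ndufb5, an accessory subunit of the membrane arm, had 29.6, 28.4 and 31.4 CPM in C6-AQP1 and 68.2, 65.3 and 65.1 CPM in C6 control. Its log2 fold change of -1.15 (SE 0.04, edgeR adjusted p = 1.3e-16) was the lowest in complex I. Ndufa2 had 25.2, 24.1 and 21.1 CPM against 45.5, 46.9 and 44.2 CPM, and Ndufa6 had 20.8, 18.6 and 19.1 CPM against 38.4, 37.5 and 35.1 CPM. Both are accessory subunits of the arm that projects into the matrix, and they fell by 0.97 (SE 0.05) and 0.93 (SE 0.05) on the log2 scale. The groups did not overlap in any of these 3 genes, as in 82.5% of all genes in either direction.

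The genes of complex I that did not pass were Ndufv3, Ndufc1, Ndufs5 and 2 genes listed as Ndufa1. Ndufv3 had 51.2, 52.1 and 53.6 CPM in C6-AQP1 and 51.6, 50.6 and 52.9 CPM in C6 control, so the groups overlapped at a log2 fold change of 0.02 (SE 0.04). Ndufs5 had 6 counts over all C6-AQP1 libraries and 9 over the controls. The 2 Ndufa1 genes both held fractional estimates in all 6 libraries. One had 45 and 53 counts over the groups, with a log2 fold change of 0.07 (SE 0.45). The other Ndufa1 gene had 24.6, 16.7 and 16.4 CPM against 26.5, 25.7 and 22.7 CPM, with a log2 fold change of -0.41 (SE 0.18, edgeR adjusted p = 0.097) that was -0.58 (edgeR adjusted p = 6.7e-11) without C6-AQP1 replicate 1. Ndufc1 also had its highest C6-AQP1 value in that library, with 6.86, 3.08 and 4.04 CPM against 8.62, 8.82 and 6.83 CPM. Its log2 fold change of -0.87 (SE 0.32, edgeR adjusted p = 0.056) was -1.17 (edgeR adjusted p = 2.1e-09) without that library. Ndufb4 passed narrowly at -0.38 (SE 0.13, edgeR adjusted p = 0.049) and did not pass when any library other than C6-AQP1 replicate 1 was left out.

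Complex II, which is also the succinate dehydrogenase of the tricarboxylic acid cycle, had the smallest median log2 fold change of the complexes, at -0.29 over its 4 genes. Sdha, for the flavoprotein that oxidizes succinate, had 221.5, 223.4 and 220.8 CPM in C6-AQP1 and 230.1, 216.3 and 222.7 CPM in C6 control. The groups overlapped, with an edgeR adjusted p of 0.86. Sdhb, for the iron-sulfur subunit, had 100.1, 104.0 and 99.4 CPM against 137.7, 139.5 and 137.1 CPM, and fell by 0.45 (SE 0.03) on the log2 scale. The membrane anchors Sdhc and Sdhd also fell, with log2 fold changes of -0.23 (SE 0.02) and -0.35 (SE 0.02). As a share of all counts, the complex II genes took 0.0633% in C6-AQP1 and 0.0710% in C6 control, a difference of -10.9%, while the shares of the nuclear genes of complexes I, III, IV and V differed by -27.3%, -27.1%, -33.2% and -28.4%.

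All 11 nuclear genes of complex III and cytochrome c fell, beside 40.7% of all genes, with a median log2 fold change of -0.69. Cycs, for the mobile carrier cytochrome c, had 137.2, 133.9 and 133.3 CPM in C6-AQP1 and 255.7, 241.2 and 234.5 CPM in C6 control. Its log2 fold change was -0.85 (SE 0.03, edgeR adjusted p = 5.9e-16), with 5 libraries holding a fractional estimate. Cyc1, the cytochrome of complex III that passes electrons to cytochrome c, fell by 0.61 (SE 0.03). Uqcrq, a small subunit bound next to cytochrome b, had 35.0, 29.6 and 28.5 CPM against 67.5, 68.4 and 63.0 CPM, with a log2 fold change of -1.12 (SE 0.07, edgeR adjusted p = 1.2e-07).

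The other genes of complex III spanned a wide range of sizes. Uqcrfs1, for the Rieske iron-sulfur protein, fell by 0.69 (SE 0.03) and Uqcr11, a small subunit, by 0.78 (SE 0.05). The core proteins changed less, with -0.49 (SE 0.02) for Uqcrc1 and -0.20 (SE 0.02) for Uqcrc2. Uqcr10 had the lowest log2 fold change of the complex at -1.37 (SE 0.46), but from 15 counts in all C6-AQP1 libraries and 48 in the controls. Its edgeR adjusted p was 0.0093, and it did not pass with DESeq2 (adjusted p = 0.051). Both genes listed as Uqcrb fell, by 0.47 (SE 0.13) and 0.70 (SE 0.09).

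In complex IV, 11 of 14 nuclear genes fell and 3 did not pass, where 40.7% of all genes fell. Cox5b had 85.7, 74.9 and 78.8 CPM in C6-AQP1 and 184.2, 181.9 and 180.7 CPM in C6 control. Every C6-AQP1 library was thus under every control library by a wide margin, and the log2 fold change was -1.20 (SE 0.04, edgeR adjusted p = 3.1e-14). Cox4i1, the widespread isoform of the largest nuclear subunit, had 203.6, 189.3 and 190.0 CPM against 250.5, 250.3 and 251.4 CPM and fell by 0.37 (SE 0.03). Cox8a fell by 0.49 (SE 0.03) and Cox7a2l2 by 0.89 (SE 0.05), with Cox7c at -0.85 (SE 0.16) and Cox7b at -0.83 (SE 0.10). Ndufa4, named after complex I but known as a subunit of complex IV, had 134.1, 131.6 and 129.1 CPM against 200.9, 204.4 and 192.0 CPM and fell by 0.60 (SE 0.03).

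For isoforms of complex IV subunits, counts were uneven. Cox6a1 fell by 0.55 (SE 0.02). One of the 2 genes listed as Cox6b1 fell by 0.59 (SE 0.05), and the other had 10 counts over all C6-AQP1 libraries and 17 over the controls and did not pass. Cox7a1, the isoform of heart and skeletal muscle, had 0 counts in C6-AQP1 and 1 in C6 control, as did Cox7b2. Both are at or under the floor of 3 counts, so no fold is given. Other isoforms such as Cox4i2, Cox6a2 and Ndufa4l2 were not among the genes in the count tables. The median log2 fold change of complex IV was -0.65 over all 14 genes and -0.59 over the 12 genes above the floor.

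Complex V had 15 nuclear genes, of which 14 fell, and a median log2 fold change of -0.72. Among all genes, 40.7% fell. The F1 part of the enzyme, where ATP is made, is encoded by 5 of these genes, which all fell with a median of -0.46. Atp5b, for the catalytic beta subunit, had 1013, 1029 and 1017 CPM in C6-AQP1 and 1513, 1524 and 1533 CPM in C6 control. Its log2 fold change of -0.58 (SE 0.02) had an edgeR adjusted p of 3.7e-18. Atp5a1, for the alpha subunit, fell by 0.35 (SE 0.02) and Atp5d, for the delta subunit, by 0.42 (SE 0.02).

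The 10 genes for the membrane part and peripheral stalk of ATP synthase had a median of -0.77, and 9 of them fell. Subunit c, which forms the rotating ring, is encoded by 3 genes. Atp5g1 had 24.0, 21.0 and 21.2 CPM in C6-AQP1 and 45.1, 46.2 and 44.0 CPM in C6 control, with a log2 fold change of -1.05 (SE 0.05, edgeR adjusted p = 1.1e-14). Atp5g2 fell by 0.76 (SE 0.03) and Atp5g3 by 0.72 (SE 0.03), so the fall was seen in each gene for this subunit. Atp5j2, for a membrane subunit, had 73.8, 60.4 and 58.0 CPM against 127.9, 127.6 and 117.2 CPM and fell by 0.98 (SE 0.10). Atp5o, for the stalk protein that gives oligomycin sensitivity, had 125.1, 122.3 and 122.1 CPM against 200.8, 199.8 and 192.1 CPM and fell by 0.68 (SE 0.03).

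Atp5f1, for the peripheral stalk, was the gene of complex V that did not pass. It had 105.1, 95.6 and 95.4 CPM in C6-AQP1 and 135.8, 85.3 and 136.4 CPM in C6 control, so C6 control replicate 2 lay below every other library. The log2 fold change was -0.26 (SE 0.23, edgeR adjusted p = 0.34) with all libraries and -0.46 (edgeR adjusted p = 3.8e-08) without that library.

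**Figure D4:**
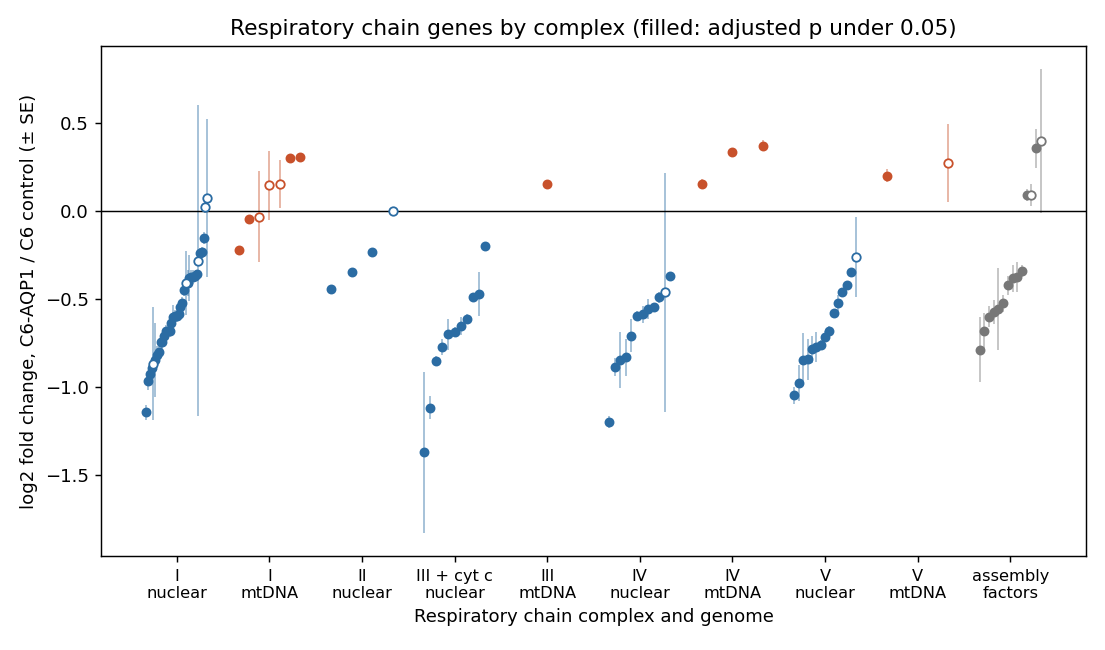
Log2 fold change of C6-AQP1 minus C6 control (axis in log2 units) for each subunit gene and assembly factor, by complex and genome and in order of size, without Cox7a1 and Cox7b2; filled points passed the test and bars are 1 SE. Nuclear subunit genes lie below 0 apart from 2 open points of complex I at 0.02 and 0.07, and the mitochondrial genes lie between -0.22 and 0.37.

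**Figure D5:**
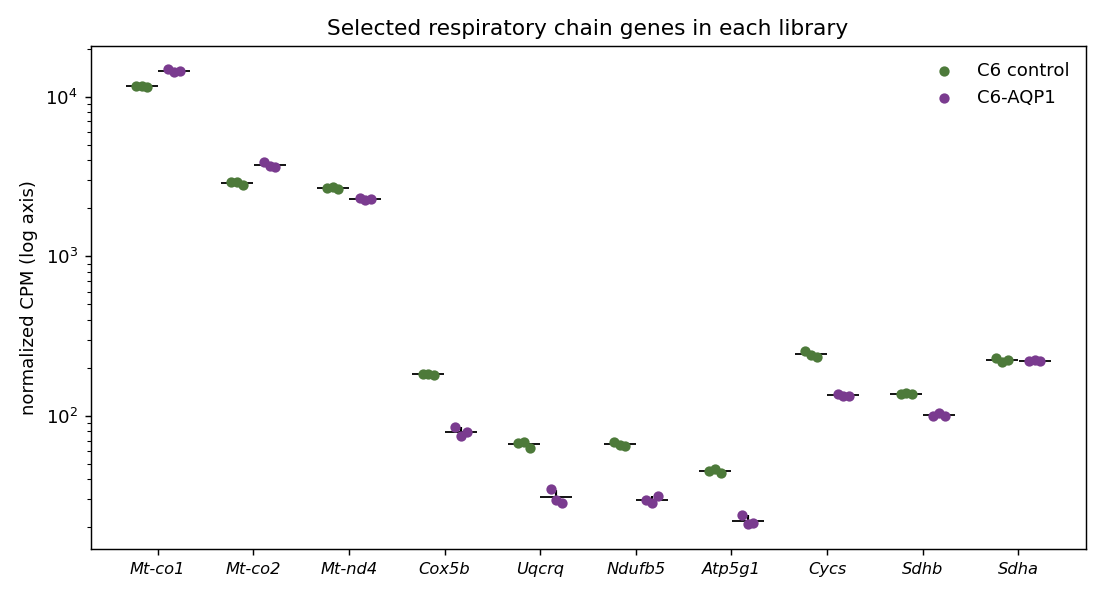
Normalized CPM (vertical axis, log scale) of 10 members in each of the 6 libraries, with a point for each library, a line at each group mean and bars of 1 SD. Mt-co1 and Mt-co2 are higher and Mt-nd4 lower in the C6-AQP1 libraries, Sdha overlaps between groups, and the nuclear genes Cox5b, Uqcrq, Ndufb5, Atp5g1, Cycs and Sdhb are lower in every C6-AQP1 library.

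Promoters of the nuclear genes were read because so many of these genes fell together. RefSeq promoters of build GRCr8, from 250 bases before to 50 bases after each gene start, were found for 79 of the 91 nuclear symbols. Letters typical of binding motifs were searched on both strands: GCATGCG or CGCATGC for NRF1, CCGGAAG or CTTCCGG for ETS factors such as GABP, and AAGATGG or CCATCTT for YY1. The NRF1-type letters stood in 16.5% of the 79 promoters, in 3.33% of all 33469 rat promoters and in 6.54% of the 10146 promoters of genes in the count tables. The ETS-type letters stood in 27.8%, 8.75% and 18.2%, and the YY1-type letters in 21.5%, 7.01% and 8.40%. A match describes the letters in this window and does not show a binding site. The 200 bases before the start of 4 genes with the NRF1-type letters, picked after their values were seen, are shown 5′ to 3′ on the strand of the gene, with matches to the motifs in capitals. Cycs lies on the minus strand (chr4:80984768-80984967), Ndufa11 on the plus strand (chr9:1637414-1637613), Ndufa6 on the minus strand (chr7:115750318-115750517) and Atp5o, named Atp5po in RefSeq, on the minus strand (chr11:44657484-44657683).
Cycs: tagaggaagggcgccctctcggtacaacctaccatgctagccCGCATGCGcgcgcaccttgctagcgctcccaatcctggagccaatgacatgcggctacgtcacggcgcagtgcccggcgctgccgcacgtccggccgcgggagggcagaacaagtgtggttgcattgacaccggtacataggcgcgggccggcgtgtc
Ndufa11: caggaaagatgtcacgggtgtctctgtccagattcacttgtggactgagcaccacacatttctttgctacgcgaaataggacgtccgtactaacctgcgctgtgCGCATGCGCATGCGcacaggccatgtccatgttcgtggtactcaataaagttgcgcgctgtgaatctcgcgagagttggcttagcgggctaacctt
Ndufa6: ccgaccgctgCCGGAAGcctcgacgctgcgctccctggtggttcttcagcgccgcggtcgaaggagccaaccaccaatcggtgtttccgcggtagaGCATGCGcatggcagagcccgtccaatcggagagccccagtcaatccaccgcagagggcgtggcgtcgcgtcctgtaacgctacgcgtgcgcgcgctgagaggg
Atp5o: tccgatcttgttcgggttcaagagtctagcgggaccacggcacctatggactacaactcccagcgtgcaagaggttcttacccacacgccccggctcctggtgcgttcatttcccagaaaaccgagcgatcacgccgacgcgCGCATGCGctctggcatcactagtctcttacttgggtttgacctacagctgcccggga

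In Cycs, Ndufa11 and Atp5o the NRF1-type letters and their reverse complement overlap in a palindrome, and in Ndufa6 an ETS-type match lies upstream of the NRF1-type one. Ndufa11, an accessory subunit of complex I, had 55.9, 50.4 and 50.9 CPM in C6-AQP1 and 93.1, 92.3 and 87.1 CPM in C6 control, without overlap. Of the promoters, 39 held at least 1 of the 3 motifs, and Ndufa6, Atp5i and Atp5j held all 3. Members with and without each motif both fell in the main. With the NRF1-type letters 13 of 13 genes fell, with a median log2 fold change of -0.76, and without them 55 of 66 fell, with a median of -0.58. With the ETS-type letters 19 of 22 fell, with a median of -0.47, and without them 49 of 57 fell, with a median of -0.60. Of the 22 holders, 18 are subunit genes, and those that did not fall were Ndufa1 and the assembly factors Sdhaf1 and Sdhaf2. For a symbol with 2 genes only the first listed was used, which for Ndufa1 is the gene with few counts at 0.07. With the YY1-type letters 17 of 17 fell and without them 51 of 62 fell, with a median of -0.60 and -0.59. All 17 holders of the YY1-type letters are subunit genes. The set without them thus holds all the assembly factors, and also Cox7a1 and Cox7b2, which had almost no counts. Differences between genes with and without a motif were not tested.

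Among the 14 assembly or accessory factors whose symbols fit the rule, 10 fell, 2 rose and 2 did not pass, with a median log2 fold change of -0.40. Of all genes, 40.7% fell and 40.8% rose. Beyond 1.2-fold 8 of the 14 fell (57.1%) and 0 rose, beside 27.1% and 28.9% of all genes. All 7 Ndufaf genes, which help to build complex I, fell by between 0.38 (SE 0.08) for Ndufaf6 and 0.69 (SE 0.10) for Ndufaf2. Ndufaf4, for example, had 23.9, 22.1 and 21.8 CPM in C6-AQP1 and 33.3, 32.3 and 31.6 CPM in C6 control. Cox7a2l, which joins complexes III and IV into supercomplexes, fell by 0.34 (SE 0.04). The Sdhaf genes for complex II were mixed. Sdhaf2, which helps to attach flavin to Sdha, had 54.2, 55.3 and 55.3 CPM against 52.7, 52.0 and 50.9 CPM, a log2 fold change of 0.09 (SE 0.03, edgeR adjusted p = 0.020). It did not pass with DESeq2 (adjusted p = 0.083) or without C6-AQP1 replicate 2 (edgeR adjusted p = 0.061), C6-AQP1 replicate 3 (edgeR adjusted p = 0.060) or C6 control replicate 3 (edgeR adjusted p = 0.056). Sdhaf3 fell by 0.79 (SE 0.18) from low counts, and Sdhaf4 passed at -0.56 (SE 0.23, edgeR adjusted p = 0.036) with overlapping groups. Sdhaf4 did not pass without C6-AQP1 replicate 2 (-0.50, edgeR adjusted p = 0.13), C6-AQP1 replicate 3 (-0.31, edgeR adjusted p = 0.22), C6 control replicate 1 (-0.54, edgeR adjusted p = 0.083) or C6 control replicate 2 (-0.47, edgeR adjusted p = 0.14). Sdhaf1 and Atp5sl did not pass, and Atp5s rose by 0.35 (SE 0.11). Atp5sl, a factor of complex I assembly despite its symbol, passed without C6 control replicate 2 (0.17, edgeR adjusted p = 0.035). The pseudogene Ndufv3-ps1 had 9 counts over all C6-AQP1 libraries and 4 over the controls.

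Assembly factors with other symbols, taken from lists by complex, also included more genes that fell than genes that rose, where 40.7% of all genes fell and 40.8% rose. Of 11 for complex I, 7 fell and 1 rose, with a median log2 fold change of -0.37. Acad9, an acyl-CoA dehydrogenase relative needed for complex I assembly, had the lowest value at -0.74 (SE 0.04), and Foxred1 rose by 0.22 (SE 0.07). Of 7 for complexes II and III, 6 fell and none rose, with Uqcc2 at -0.78 (SE 0.05). Of 21 for complex IV, 14 fell and 3 rose, with a median of -0.46. Cox17, a copper chaperone, had 11.8, 9.35 and 9.95 CPM in C6-AQP1 and 21.6, 21.9 and 19.5 CPM in C6 control, a log2 fold change of -1.04 (SE 0.08), whereas Cox15, an enzyme of heme a synthesis, rose by 0.30 (SE 0.03). The list for complex V also held subunits with other symbols, and 3 of its 5 genes fell. Among them were Usmg5, a small ATP synthase subunit, at -1.11 (SE 0.20) and Fmc1 at -1.03 (SE 0.13). The assembly factors Atpaf1 (-0.0005) and Atpaf2 (-0.07) did not pass.

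Nuclear genes that act on the mitochondrial genome went both ways. Among 20 genes for mitochondrial DNA maintenance and transcription there were 11 that fell and 6 that rose, where 40.7% of all genes fell and 40.8% rose, with a median log2 fold change of -0.26. Beyond 1.2-fold 5 of the 20 fell, a share near the 27.1% of all genes. Tfam, which packages mitochondrial DNA and starts its transcription, had 48.2, 45.5 and 44.7 CPM in C6-AQP1 and 59.6, 61.8 and 60.2 CPM in C6 control. It fell by 0.40 (SE 0.04). Polrmt, the mitochondrial RNA polymerase, had 16.9, 18.7 and 19.7 CPM against 16.6, 16.6 and 16.9 CPM, with overlapping groups. It passed at 0.15 (SE 0.06, edgeR adjusted p = 0.029). It did not pass with DESeq2 (adjusted p = 0.085) or without C6-AQP1 replicate 2 (edgeR adjusted p = 0.079), C6-AQP1 replicate 3 (edgeR adjusted p = 0.18) or C6 control replicate 2 (edgeR adjusted p = 0.066). Mterf1, a transcription termination factor, rose by 0.70 (SE 0.07) and Mterf2 by 1.03 (SE 0.23), the latter from at most 1.73 CPM. Of 19 genes for mitochondrial RNA processing and stability, 12 fell (63.2%) and 3 rose (15.8%), with a median of -0.21, and beyond 1.2-fold 31.6% fell. Slirp, which with Lrpprc stabilizes mitochondrial messenger RNA, had 9.32, 8.94 and 7.90 CPM against 21.4, 18.99 and 19.5 CPM, a log2 fold change of -1.20 (SE 0.07), and Lrpprc itself changed by -0.21.

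Among 15 regulators of nuclear respiratory chain genes there were 7 that rose (46.7%) and 6 that fell (40.0%), with a median log2 fold change of -0.01. These shares are close to those of all genes, 40.8% and 40.7%. Nrf1, an activator of many of these genes, had 26.4, 25.05 and 25.8 CPM in C6-AQP1 and 44.0, 42.4 and 43.2 CPM in C6 control. This was a log2 fold change of -0.75 (SE 0.04, edgeR adjusted p = 3.4e-13). Gabpa and Gabpb1, which form the ETS-type factor GABP, fell by 0.51 (SE 0.03) and 0.38 (SE 0.06), and the nuclear receptor Esrra fell by 0.34 (SE 0.04). In the other direction, the coactivator Ppargc1b had 12.2, 13.3 and 11.6 CPM against 2.96, 3.89 and 3.11 CPM and rose by 1.87 (SE 0.11). Myc rose by 0.66 (SE 0.05) and Hif1a, the oxygen-regulated factor, by 0.51 (SE 0.02). Yy1, whose motif was also searched in the promoters, rose by 0.12 (edgeR adjusted p = 0.0055). It did not pass without C6-AQP1 replicate 3 (0.09, edgeR adjusted p = 0.051).

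Enzymes that feed electrons to the chain included many small falls. Of 27 genes of pyruvate dehydrogenase and the tricarboxylic acid cycle, 20 fell (74.1%) and 5 rose (18.5%), with a median log2 fold change of -0.23, beside 40.7% and 40.8% of all genes. Beyond 1.2-fold 7 fell, or 25.9% beside 27.1% of all genes. Fh, the fumarase, fell by 0.57 (SE 0.03), and Pdk1, a kinase that inhibits pyruvate dehydrogenase, fell by 0.58 (SE 0.03). Pdk4, another such kinase, rose by 1.10 (SE 0.08), as did Pdp2, a phosphatase that reverses their effect, by 1.14 (SE 0.08). Pc, the pyruvate carboxylase, had 113.4, 120.4 and 119.1 CPM in C6-AQP1 and 47.7, 47.6 and 48.7 CPM in C6 control, a rise of 1.30 (SE 0.03). Of 14 genes of coenzyme Q synthesis, 7 fell and 3 rose, with a median of -0.21, where 40.7% of all genes fell and 40.8% rose. Pdss1, for a subunit of the enzyme that makes the side chain, fell by 0.72 (SE 0.08), and the kinase-like Adck3 rose by 1.43 (SE 0.13).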

How the data were processed

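Per the submitters' processing notes and the methods, the tools were FastQC 0.11.2, Trimmomatic 0.36 for trimming, STAR 2.5.1b for alignment to rn6, RSEM 1.2.29 for quantification and DESeq2 1.14.1. The labels describe single reads, the methods paired ends. The authors deposited expected counts, unnormalized estimates that may be fractions, for 12121 genes in each library. The methods describe a filter on mean TPM, which could not be checked without transcript lengths. RSEM divides reads that fit several genes, and 14 members held a fractional value in at least 1 library.

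Counts were rounded, scaled by TMM and tested with edgeR 4.0.16 (quasi-likelihood, robust, R 4.3.3) without covariates. P-values were adjusted by Benjamini-Hochberg over all genes, and SE denotes standard error. For DEGs the absolute log2 fold change also had to exceed 1, at an adjusted p under 0.05. Transcript lengths were not used, so levels are not compared between genes. The common coefficient of biological variation was 2.97%, and replicates differed by more than sampling noise. The edgeR, DESeq2 and limma steps were tested on simulated data. Alternatives were DESeq2 1.42.0, limma-voom (limma 3.58.1), other scalings, a filter of 10 counts, a replicate block, glmTreat and leaving out libraries.

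The members and lists were chosen with earlier results of these data known. Genes named were drawn from a rule: all mitochondrial members, the 3 nuclear subunits of each complex with the highest and the 3 with the lowest log2 fold change, Cyc1, Cycs, assembly factors, isoform sets, and up to 4 called members of each list with the largest change (any of a list under 15). Others named for their role (core and head subunits, Gabpa, Gabpb1, Esrra, Yy1, Tfam, Polrmt, Lrpprc, Cox15 and the like) were picked after their values were seen. Protein sequences and mitochondrial rRNAs were not analysed here.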

Additional observations from a re-analysis of the deposited data

How the results depend on the processing

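The count of nuclear subunit genes that fell was 68 to 71 when any library was left out, and none rose. Their median log2 fold change was -0.55 with library totals in place of TMM, and that of the mitochondrial genes was 0.21. Leaving out libraries gave mitochondrial medians from 0.11 to 0.24 and 1 to 3 mitochondrial genes lower. With library totals 1 mitochondrial gene was lower, and Mt-nd2 turned to 0.0096 (edgeR adjusted p = 0.60). Leaving out libraries gave 1 to 3 assembly factors of the rule higher, and DESeq2 gave 1. Without both libraries numbered 1, 1 assembly factor of complexes II and III was higher. Testing against 1.2-fold left 3286 of all genes lower, 4 mitochondrial genes higher and 0 lower, and 0 assembly factors higher for the rule, for complex I and for complex IV. It left 3 genes higher and 5 lower for mitochondrial DNA, 1 higher and 6 lower for mitochondrial RNA, 7 lower for the tricarboxylic acid cycle and 1 higher for coenzyme Q, where the test requires a larger change.

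The replicate numbers of the labels were not taken as pairs, since deviations of same-numbered libraries correlated at 0.27, -0.04 and 0.09 over 11407 genes. With a replicate block, 70 nuclear subunit genes fell, and 7 mitochondrial genes rose and 2 fell.

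Low counts limit what can be read from Uqcr10, Ndufs5, the second Cox6b1 gene and some other members. Why their counts were low was not tested. Of the 107 members, 102 had at least 10 counts in every library of a group. Summed over all alternatives, 38 calls among the 107 members were lost and 13 gained. In these sums a gene is counted again for each alternative that changed its call, and Ndufb4, Sdhaf4, Mt-nd2 and Sdhaf2 recur among the losses.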
